A study of Mus musculus with 4 samples.

Results

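The neurotrophin and TRK receptor genes Ntrk2, Ntrk3, Ngfr, Bdnf and Ntf3 were examined for SOX2 pull-down in the mouse cortex. SOX2 is a transcription factor of neural stem cells that astrocytes also make. These 5 of 21627 protein-coding genes were selected on the SOX2 peaks of the same files, and a peak was counted to a gene when its centre lay inside the RefSeq span of the gene or within 50 kb of it. The rule gave 32 of the 27083 merged regions of the series, of which 16 of 9334 held a peak in each IP library and are called reproducible here. Because peaks chose the genes, the counts and strengths below describe them and carry no test.

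The assay was chromatin immunoprecipitation with sequencing (ChIP-seq), in which chromatin pulled down with an antibody is sequenced and set against unselected chromatin, the input. There were 3 SOX2 IP libraries, made with a rabbit antibody to SOX2, and 1 input library, all from cortex of wild-type male C57BL/6 mice aged 2 months. The series is about deleting SOX2 in astrocytes and recovery from brain injury, but none of these samples is labelled as injured or deleted. A label field lists SOX2 as a transduced factor in every sample, the input included, which is at odds with the wild-type tissue, and it was not used. Whole cortex holds neurons, astrocytes and other cells, the assay measures no RNA, and the cell type that a region comes from was not measured. Nothing states whether the IP libraries came from separate mice or separate chromatin, so their spread may be technical. IP libraries 1, 2 and 3 held 36330529, 32492927 and 41875666 tags, which are reads placed on the genome.

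Neurotrophins are secreted growth factors that keep neurons alive and shape their synapses. BDNF, the product of Bdnf, acts mainly through the receptor tyrosine kinase TRKB, made from Ntrk2, and neurotrophin-3, the product of Ntf3, acts mainly through TRKC, made from Ntrk3. All neurotrophins also bind the receptor made from Ngfr, which has no kinase and belongs to the tumour necrosis factor receptor family. Ntrk2 gives a full-length receptor, common in neurons, and a truncated form without the kinase, which is the main form in astrocytes.

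Ntrk2 carried most of the SOX2 regions of these genes, and each of the other genes carried few. Ntrk2 had 24 regions, 11 of them reproducible, while Ntrk3 had 2 reproducible regions and Ngfr, Bdnf and Ntf3 had 1 each. All 5 genes thus had at least 1 reproducible region, as did 46.6% of all protein-coding genes, and 71.8% of all had a region of at least 1 library. In normalized tags, the authors' strength of a peak with each library scaled to 10000000 tags, the 16 reproducible regions had a median of 7.35, against 7.63 for all 9334. Their median enrichment over the input was 14.9-fold, against 15.3-fold for all. Of the 16, 7 were stronger than the median of all reproducible regions. Their median was thus close to that of reproducible regions elsewhere, but it pools unlike genes. The 5 strongest Ntrk2 regions were each stronger than at least 83.8% of all reproducible regions. Those of Ntrk3, Ngfr and Ntf3 were stronger than at most 21.7%. Ntrk2 also had the most regions.

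Ntrk2 spans chr13:58806472-59133970 on the mm10 build, a length of 327 kb on the forward strand. The nearest other protein-coding gene on the start side, Slc28a3, lies 196 kb from the first Ntrk2 region, and on the other side Agtpbp1 lies 268 kb from the last. Positions along Ntrk2 are given in kb from the start end of this span. At 0.067 kb a region of 2 libraries, chr13:58806456-58806622, covered the transcription start listed by RefSeq at 58806569. IP library 1 had 4.68 normalized tags there, with an exact 95% Poisson interval of 2.73 to 7.49, and IP library 2 had 4.92 (2.81 to 8.0). IP library 3 had no peak at the start. Both peaks were small, 17 and 16 tags where a peak needed at least 14 and 13, and they stood 4.50-fold and 4.37-fold over their surroundings, close to the authors' limit of 4-fold. A start window overlapped by a region of at least 2 libraries was found in 13.5% of the protein-coding genes with a listed window, and by a reproducible region in 8.39%.

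The bases of this start are shown because no other of the 11 start windows listed for Ntrk2, Ngfr, Bdnf and Ntf3 was overlapped by a region. The window runs from 250 bases before to 50 bases after the listed start, chr13:58806319-58806618, forward strand, RefSeq sequence of the GRCm38.p6 assembly. Capitals mark the 163 bases of the window that lie under the region, from 113 bases before the start to 49 after it. The second line shows 30 bases at the far end of the same window, with a SOX core match in capitals.
Ntrk2 start window: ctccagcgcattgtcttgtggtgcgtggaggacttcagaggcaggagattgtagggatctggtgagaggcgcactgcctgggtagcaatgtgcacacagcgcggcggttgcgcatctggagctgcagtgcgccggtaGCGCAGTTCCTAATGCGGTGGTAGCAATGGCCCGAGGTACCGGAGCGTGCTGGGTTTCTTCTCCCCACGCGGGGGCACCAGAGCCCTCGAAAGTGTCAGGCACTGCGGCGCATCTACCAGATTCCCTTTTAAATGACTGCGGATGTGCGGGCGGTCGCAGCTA
Ntrk2 SOX core: ctccagcgCATTGTcttgtggtgcgtggag

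SOX proteins favour short A and T rich words, and the letters CATTGT and CTTTGT were searched on both strands. CATTGT was found once in the Ntrk2 window, 242 bases before the start and 123 bases short of the region. The covered bases inside the window thus held neither word, and the region's last bases, past the window, were not searched. Of the 1591 start windows of protein-coding genes under a reproducible region 30.1% held at least 1 of the words, against 25.2% of all 21044 start windows of protein-coding genes and 28.6% of all 32851 listed windows. The Ntrk2 window was 61.3% G and C, against a median of 56.7% over protein-coding genes. RefSeq windows were matched for 4 of the 5 genes, 11 windows in all, and 3 of the 11 held a word. Beside Ntrk2 these were 2 of the 7 starts of Bdnf.

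The first 35 kb of Ntrk2 held 4 reproducible regions, among them the strongest of all 5 genes. At 3.47 kb, chr13:58809827-58810057 had 5.23, 5.85 and 6.45 normalized tags in IP libraries 1, 2 and 3, and at 20.0 kb, chr13:58826386-58826575 had 5.78, 6.46 and 4.30. At 31.7 kb, chr13:58838060-58838241 had 20.1, 27.1 and 17.9, a mean of 21.7 ± 4.80 (SD, n = 3). This region was stronger than 97.1% of the reproducible regions of the series. It stood 16.6-fold, 22.3-fold and 14.8-fold over the input. Its Poisson intervals were 15.7 to 25.3, 21.7 to 33.4 and 14.1 to 22.5 in IP libraries 1, 2 and 3, so each overlapped the others. Only 2.69 kb further, at 34.6 kb, chr13:58840935-58841165 had 7.16, 9.23 and 7.16 normalized tags, near the median of all regions. The strongest region thus had a neighbour of ordinary strength close by, and the weaker ones lay further off towards the start.

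The next 97.4 kb, from 34.7 to 132 kb, held no peak in any library, the longest empty stretch of the locus. Beyond it the middle of the gene held 4 reproducible regions. At 132 kb, chr13:58938538-58938732 had 7.98, 4.92 and 5.25 normalized tags in IP libraries 1, 2 and 3, and at 159 kb, chr13:58964936-58965182 had 7.71, 7.39 and 6.21. Both were below the median of all reproducible regions. The other pair was stronger. At 165 kb, chr13:58971538-58971744 had 16.8, 12.0 and 9.31, a mean of 12.7 ± 3.79 (SD, n = 3), and it was stronger than 83.8% of reproducible regions. Its value in IP library 1 was the highest and that in IP library 3 the lowest, with intervals of 12.8 to 21.6 and 6.62 to 12.7 that did not overlap. At 235 kb, chr13:59041052-59041221 had 14.9, 15.1 and 9.79, a mean of 13.3 ± 3.01, stronger than 85.5%. Between them, at 170 kb and at 205 kb, lay 3 regions of a single library, with 5.23 and 4.68 normalized tags in IP library 1 and 4.0 in IP library 2. The pair at 205 kb lay 0.176 kb apart without overlapping.

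The last stretch of the gene held 8 regions and 1 of them was reproducible, chr13:59091533-59091750 at 285 kb with 8.81, 5.85 and 8.12 normalized tags in IP libraries 1, 2 and 3. A different picture was found at 274 kb, where 4 peaks of all 3 libraries stood side by side within 748 bp, chr13:59080036-59080784. IP library 3 had 7.88 at the first position, IP library 2 had 11.1 at the second, and IP libraries 1 and 3 had 12.7 and 8.84 at the last. These are above the median strength, yet no base was covered in all 3 libraries, so the place was not counted as reproducible. Joining peaks up to 500 bp apart, a setting chosen after these peaks were seen, made it so and gave Ntrk2 12 reproducible regions. The focus ratio, the share of a peak's tags that lie where its centre predicts, was 0.522 to 0.629 for the 4 peaks. Its median was 0.721 over the 50 Ntrk2 peaks, and 10.6% of all peaks of the series were at or below 0.629. The other regions here were weak, with 4.0 in IP library 2 at 260 kb, 5.85 in IP library 2 at 286 kb, 5.51 in IP library 1 at 288 kb, and 5.23 and 3.34 in IP libraries 1 and 3 at 314 kb.

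Past the finish end of Ntrk2 lay a strong pair of reproducible regions 0.67 kb apart. The first, chr13:59143445-59143613, was 9.56 kb beyond the gene and had 18.2, 18.5 and 14.6 normalized tags across IP libraries 1, 2 and 3, with a mean of 17.1 ± 2.17 (SD, n = 3). Its enrichment over the input was the highest among the 16 reproducible regions, 59.8-fold, 60.8-fold and 48.0-fold, but it rests on an input of 1.0 tag. Over its surroundings it stood 8.85-fold, 10.8-fold and 9.9-fold, less than the 15.8-fold, 19.5-fold and 13.3-fold of the region at 31.7 kb. The second, chr13:59144283-59144460, was 10.4 kb beyond the gene, inside the long non-coding RNA gene Gm34307, and had 19.8, 18.5 and 15.5, a mean of 17.9 ± 2.21. They were stronger than 93.2% and 94.2% of reproducible regions. Both varied less between libraries than the strongest region inside the gene. Near the 50 kb limit, inside the non-coding gene Gm34354, a region of IP libraries 2 and 3 had 5.23 and 5.25 at 46.9 kb beyond the gene, and a peak of IP library 3 had 4.06 at 47.3 kb. No peak was found in the 50 kb before the start.

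**Figure D1:**
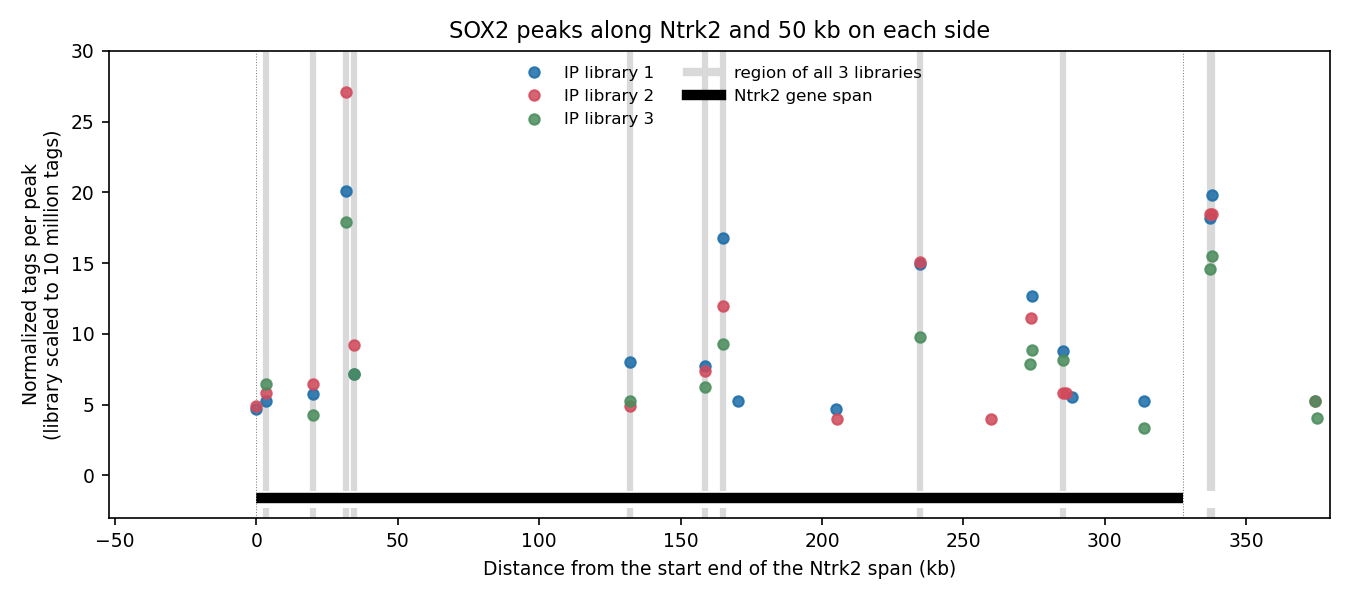
SOX2 peaks along Ntrk2, with distance from the start end of the gene span in kb on the horizontal axis and normalized tags per peak on the vertical axis. Points are peaks coloured by IP library, grey lines mark the 11 regions found in all 3 libraries, and the black bar is the gene. The highest points lie at 31.7 kb and at the pair beyond the gene, and no point lies between 34.7 and 132 kb.

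Among themselves, the 11 reproducible Ntrk2 regions ranged from 5.51 to 21.7 mean normalized tags. The 5 strongest held 67.4% of the summed strength, and the other 6 lay between 5.51 and 7.85. A median over regions of 20.0% was found for the SD relative to the mean, against 17.3% over all reproducible regions. IP library 3 gave the lowest value at 7 of the 11, or 63.6%, and it was the lowest at 60.1% of all reproducible regions. The lean towards lower values in IP library 3 was thus shared with the whole series. Centres of the peaks of a region differed by a median of 39.0 bp between libraries, against 47.0 bp over all. The 9 regions of a single library held 4.0 to 11.1 normalized tags and came from each library, 3 from IP library 1, 4 from IP library 2 and 2 from IP library 3.

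**Figure D2:**
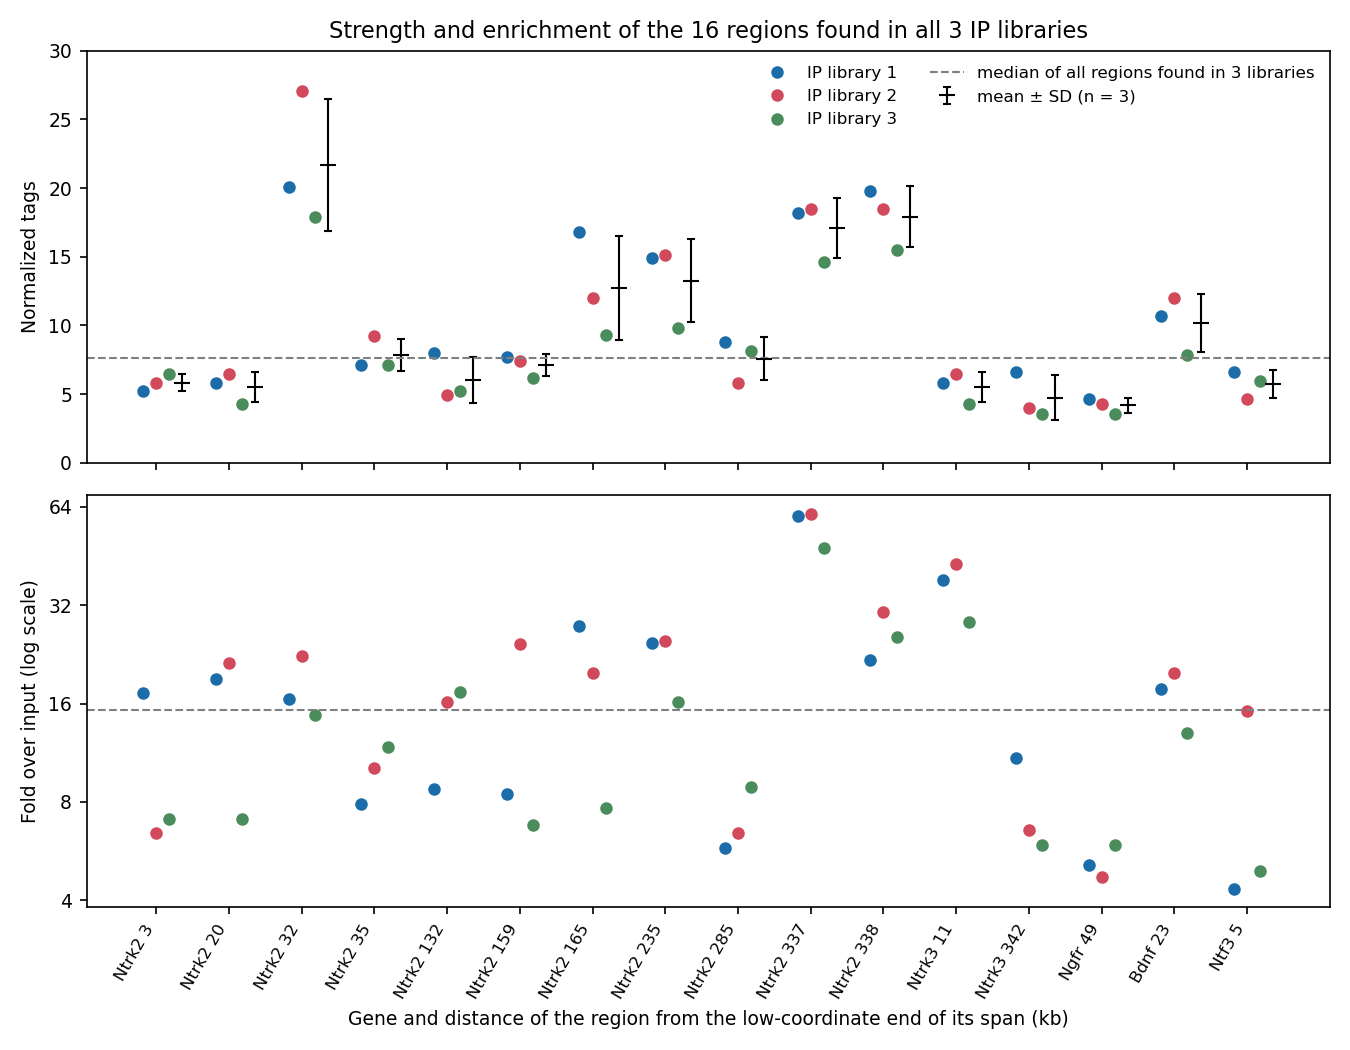
Strength (top, normalized tags) and fold over the input (bottom, log scale) of the 16 regions found in all 3 IP libraries, ordered by gene and by distance in kb from the low-coordinate end of the span. Points are libraries, black bars are the mean and SD (n = 3) and dashed lines are the medians over all 9334 such regions, 7.63 normalized tags and 15.3-fold. The Ntrk2 regions at 31.7, 337 and 338 kb stand highest in the top panel, and those of Ntrk3, Ngfr and Ntf3 lie below the dashed line there.

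Set beside other genes, Ntrk2 was near the top in its number of regions. At least 11 reproducible regions within 50 kb were found for 11 protein-coding genes, Ntrk2 included, which is 0.0509% of all, and 6 genes had more. Long genes have more room for regions, so genes with a span within 1.5 times that of Ntrk2 (218 to 491 kb) were taken as well. Of these 655 genes, 5 had at least 11, or 0.763%, while the median gene had 1 and 32.7% had none. In summed strength Ntrk2 ranked 3 of 655, with a mean of 123 normalized tags over its reproducible regions, against a median of 9.49. Under every alternative rule tried, Ntrk2 stayed among the 6 genes of this class with the most regions, except when peaks below 8-fold enrichment were dropped, where 24 genes (3.66%) had its 5 regions or more.

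Ranked by number of reproducible regions and then by summed strength over the same 3 libraries, the genes of like span closest to Ntrk2 were Hivep3, Prdm16 and Dennd1a. At least 2 other genes had as many regions as Dennd1a and were further from Ntrk2 in summed strength. Hivep3, which encodes a zinc finger protein, had 11 regions with a summed 107, 89.0 and 88.1 normalized tags in IP libraries 1, 2 and 3. Ntrk2 had 132, 131 and 105 over its own 11. Prdm16, a transcriptional regulator that is active in neural progenitors, had 12 regions and 201, 191 and 158, and Dennd1a, which encodes an activator of a RAB protein in membrane traffic, had 9 regions and 102, 94.2 and 78.8. With the same number of regions as Hivep3, Ntrk2 had the larger sum in each library.

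**Figure D3:**
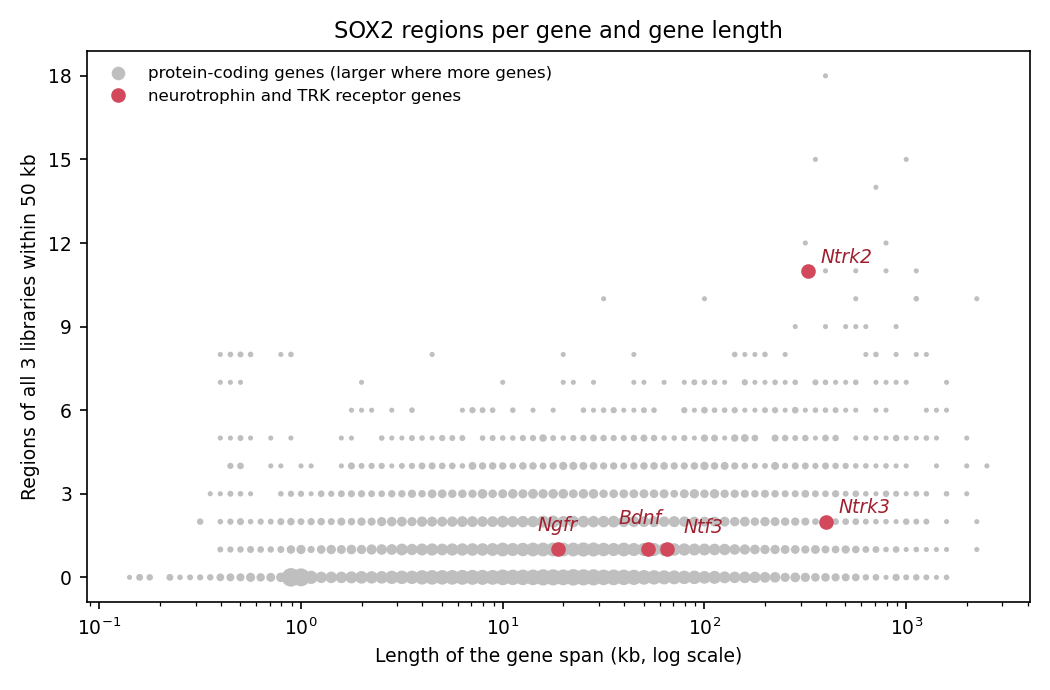
Number of regions of all 3 libraries within 50 kb of each protein-coding gene (vertical axis) against the length of the gene span (horizontal axis, kb, log scale). Grey points are genes, larger where more genes share a place, and red points are the 5 named genes. Ntrk2 lies at 11 regions, where few genes of any length are found, while Ntrk3, longer still, lies at 2.

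Ntrk3, the closest relative of Ntrk2 here, had 2 regions over a longer span, chr7:78179986-78581034, 401 kb. At 11.2 kb from its low-coordinate end, chr7:78191063-78191270 had 5.78, 6.46 and 4.30 normalized tags in IP libraries 1, 2 and 3. At 342 kb, chr7:78521980-78522181 had 6.61, 4.0 and 3.58. Their means were 5.51 ± 1.10 and 4.73 ± 1.64 (SD, n = 3), weaker than most reproducible regions, of which 17.8% and 5.37% were weaker still. The first stood 38.1-fold, 42.6-fold and 28.3-fold over the input, with the input at its floor of 0.5 tags in each library, so these folds depend on that floor. At least 2 reproducible regions were found for 21.4% of all protein-coding genes and for 44.6% of the 511 genes with a span within 1.5 times that of Ntrk3. Per megabase of span and flanks, Ntrk2 had 25.7 reproducible regions and Ntrk3 had 3.99. No other peak of any library lay within 50 kb of Ntrk3.

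Ngfr, whose product is the shared low-affinity receptor, had no peak inside its 18.9 kb span, chr11:95568818-95587698, on the reverse strand. Its single region, chr11:95617872-95618164, lay 30.3 kb before the listed start and had 4.68, 4.31 and 3.58 normalized tags in IP libraries 1, 2 and 3. With a mean of 4.19 ± 0.560 (SD, n = 3) it was among the weakest, and 0.889% of reproducible regions were weaker. The centres of its peaks differed by up to 137 bp, with 18 bp common to all 3, and a rule that each pair of peaks share 0.5 of both lengths left no reproducible region at Ngfr. At least 1 region was found for 48.3% of genes with a like span. A stronger region lay just past the limit, 55.0 kb before Ngfr and nearer to Phb, which encodes the mitochondrial protein prohibitin, with 8.81, 10.2 and 6.93 normalized tags. Across the 5 genes this was the closest region left out, and the peak 47.3 kb beyond Ntrk2 was the last taken in.

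Bdnf, the gene of the main TRKB ligand, had 1 region of above-median strength inside its span, chr2:109674700-109727043. Bdnf is read from several alternative starts, each used under its own control, and RefSeq lists 7 start windows here. The region, chr2:109697307-109697482, had 10.7, 12.0 and 7.88 normalized tags across IP libraries 1, 2 and 3, with a mean of 10.2 ± 2.11 (SD, n = 3), stronger than 72.3% of reproducible regions. It stood 17.7-fold, 19.8-fold and 12.98-fold over the input. It lay past the fifth listed start by 2.99 kb and 12.0 kb before the sixth, and covered none of the start windows. At least 1 region was found for 50.9% of genes with a like span. It was the only region of Bdnf, and no other peak lay within 50 kb of the gene in any library.

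Ntf3, the gene of the TRKC ligand, had 1 reproducible region and 3 peaks of single libraries around chr6:126101412-126166772, reverse strand. The reproducible one, chr6:126106551-126106805, lay inside the span and 5.27 kb from its finish end, 58.3 kb past the nearer of the 2 listed starts. It had 6.61, 4.62 and 5.97 normalized tags across IP libraries 1, 2 and 3, with a mean of 5.73 ± 1.02 (SD, n = 3), and 21.7% of reproducible regions were weaker. Its enrichment was uneven, 4.35-fold, 15.2-fold and 4.92-fold, where the scaled input held 5.0, 1.0 and 4.0 tags. The centres of its peaks differed by up to 102 bp, with 50 bp common to all 3. The input tags of each library were thus counted at a different position. At least 1 region was found for 52.5% of genes with a like span. Near the start, a peak of IP library 1 with 4.95 normalized tags lay 1.25 kb before the nearest listed start, at 4.08-fold over the input, just above the limit. IP library 3 alone had 3.82 and 3.10 at 18.7 and 20.8 kb before the gene.

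**Figure D4:**
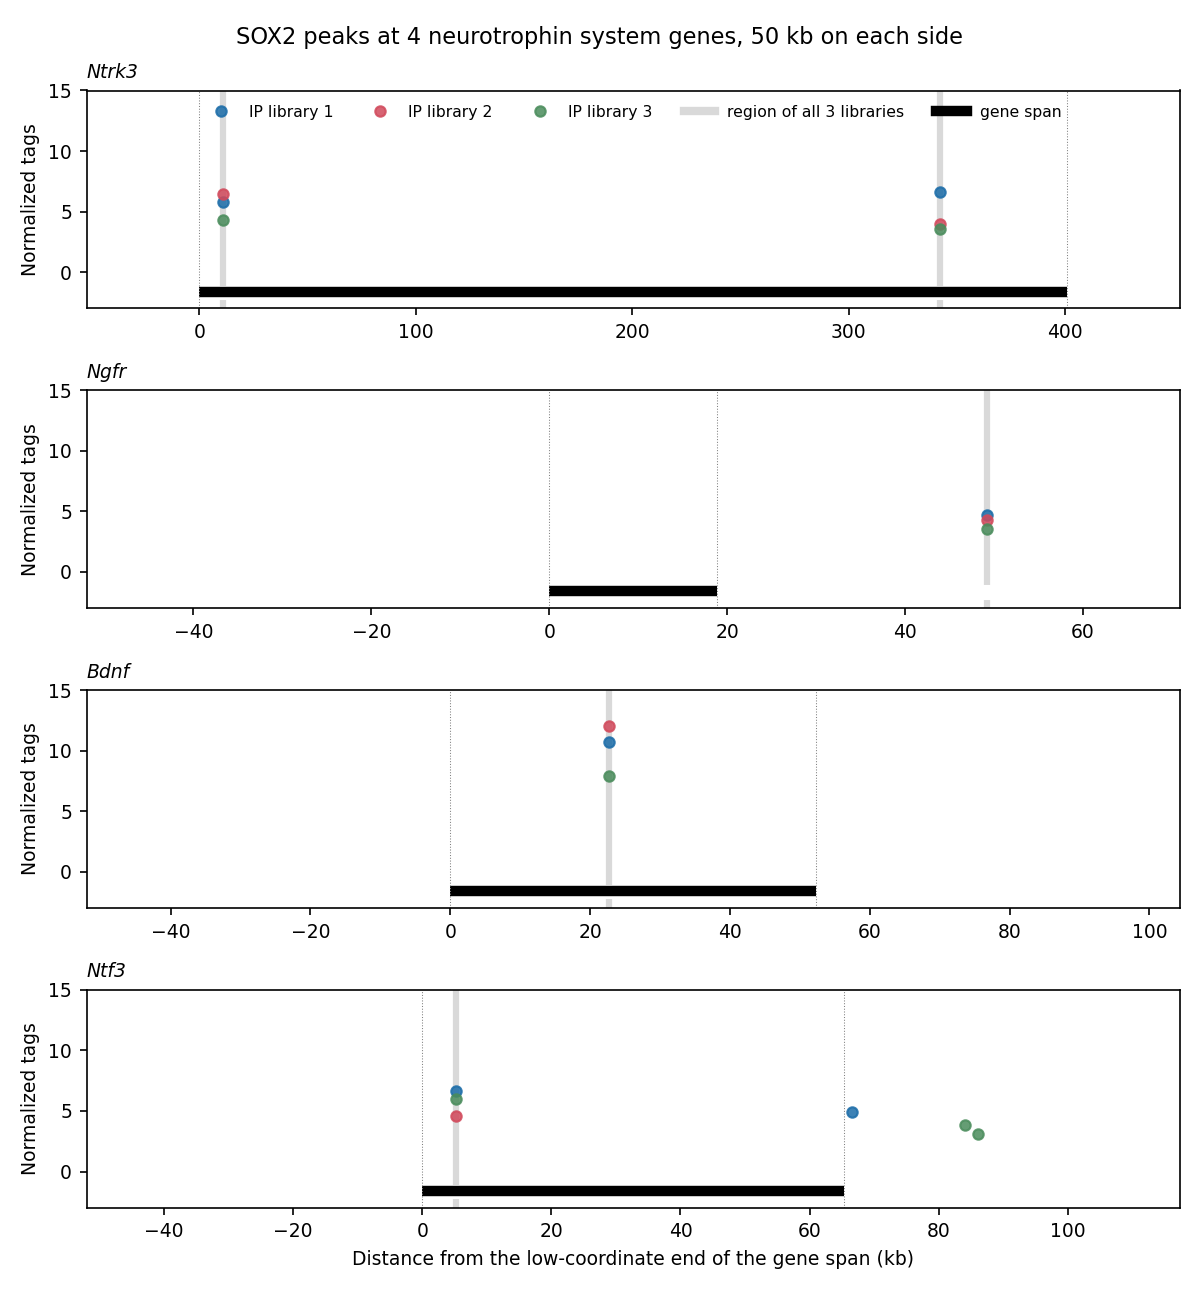
SOX2 peaks at Ntrk3, Ngfr, Bdnf and Ntf3, with distance from the low-coordinate end of each gene span in kb on the horizontal axis and normalized tags on the vertical axis. Points are peaks coloured by IP library, grey lines mark regions found in all 3 libraries and black bars are the gene spans. Each gene has 1 or 2 grey lines, the Bdnf points reach 12.0, and the Ngfr points lie outside the gene.

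By strength of the strongest reproducible region, the order was Ntrk2 at 21.7 ± 4.80, Bdnf at 10.2 ± 2.11, Ntf3 at 5.73 ± 1.02, Ntrk3 at 5.51 ± 1.10 and Ngfr at 4.19 ± 0.560 normalized tags (SD, n = 3 each). The lowest Ntrk2 value, 17.9, was above the highest Bdnf value, 12.0, and the lowest Bdnf value, 7.88, was above the highest Ntf3 value, 6.61. Values of Ntf3 and Ntrk3 overlapped, and Ntf3 was the higher in IP libraries 1 and 3 and the lower in IP library 2. The ranges of Ntrk3 and Ngfr overlapped as well, but within each of the 3 libraries Ntrk3 was the higher. This order takes the strongest of 11 regions at Ntrk2 and of 2 at Ntrk3, against a single region at each other gene, which favours Ntrk2. The median of the 11 Ntrk2 regions was 7.85, below the Bdnf region, and the weakest, 5.51, equalled the stronger Ntrk3 region.

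Another ligand gene and a co-receptor gene of the system also had reproducible regions. Ntf5, which encodes another ligand of TRKB, had 1 reproducible region with 3.85, 7.08 and 5.49 normalized tags in IP libraries 1, 2 and 3, 42.2 kb from the gene and inside Ftl1, a ferritin gene. Sort1, the co-receptor sortilin for uncleaved neurotrophins, had 3 reproducible regions, the strongest with 11.6, 9.85 and 11.5, 1.38 kb outside the gene and 2.65 kb from its neighbour Psma5.

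Of 69 further genes of neurotrophin signalling, 46 (66.7%) had a reproducible region within 50 kb, against 46.6% of all protein-coding genes. The listed genes were longer, with a median span of 40.8 kb against 17.3 kb. Among all protein-coding genes with a span of 34.9 to 78.5 kb, 50.9% had a reproducible region. Whether span length accounts for the difference was not tested. Adaptor genes had a region in 15 of 20 cases, kinase cascade genes in 14 of 17, and receptors and co-receptors in 5 of 7. Genes for cutting the precursors had one in 5 of 10, adaptors of the Ngfr receptor in 4 of 8, and nuclear effectors in 2 of 5. The strongest was at Akt2, a kinase downstream of growth factor receptors, with 32.2, 28.6 and 22.4 normalized tags in IP libraries 1, 2 and 3. Shc3, a neuronal adaptor of activated TRK receptors, had 21.5, 23.7 and 19.8 at a region just outside the gene. Plcg1, a phospholipase that TRK receptors recruit, had 19.3, 21.5 and 11.0. The docking protein gene Gab1 had 20.6, 17.2 and 12.7, and Rps6ka5, a nuclear kinase that acts on CREB, had 18.2, 16.3 and 13.1. IP library 3 gave the lowest value at each of these 5 genes.

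Of 56 receptor tyrosine kinase genes, with Ntrk2 and Ntrk3 left out, 28 (50.0%) had a reproducible region, close to the 46.6% of all genes. None had as many as Ntrk2. The strongest was at Alk, a receptor of the nervous system, with 27.0, 21.2 and 21.3 normalized tags in IP libraries 1, 2 and 3, and Alk had 8 regions over a span of 736 kb. Mertk, which astrocytes and microglia use to engulf debris, had 22.6, 17.9 and 15.3, and the growth factor receptor genes Fgfr1 and Fgfr2 had 22.0, 16 and 17.2 (Fgfr1) and 14.3, 16.6 and 12.9 (Fgfr2). Igf1r, the receptor of insulin-like growth factor, had 16.5, 16.3 and 15.0. Lmtk3, a kinase of the lemur family, had 13.5, 13.5 and 11.5 at a region 10.4 kb outside the gene and nearer to Cyth2. The values of the strongest Ntrk2 region, 17.9 to 27.1, overlapped those of Alk, Mertk and Fgfr1. All assignments here rest on distance, and the gene that a region acts on was not measured.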

How the data were processed

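The data were SOX2 ChIP-seq peak tables of 3 IP libraries of mouse cortex; the input entered through columns of these tables. Bowtie 1.0.0, HOMER 4.7 and mm10 are named in the submitters' processing notes. Per the file headers, peaks were called by the authors library by library with findPeaks. The authors required a peak to be 4-fold above the input and above its surrounding 10 kb, with a Poisson p-value, computed by HOMER, no higher than 0.0001 and FDR set to 0.001. The deposited signal, the normalized tags, is scaled to 10000000 tags per library. The deposited total tags are a count in IP library 2 and are scaled to the input in IP libraries 1 and 3. The fold is the authors' ratio of tags in the IP over those in the input, whose floor is 0.5. The deposited score is a tag number capped per position, and the deposited focus ratio is the fraction of tags on the proper side of the peak centre.

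Peaks overlapping by at least 1 bp were merged, and a region takes its strongest peak in each library. Gene spans and start windows came from RefSeq tables of GRCm38.p6, whose coordinates are those of mm10, on the autosomes and X. Poisson intervals cover counting error only. Merging and counting were tested on simulated data. The 5 genes, the signalling and receptor lists and the naming rule were chosen with earlier results of these data known. Named from the lists were the 6 strongest of each plus 4 ligand and receptor genes, Ntf5 and Sort1 among them, and the 3 genes of like span closest to Ntrk2 in number of regions, with ties settled by summed strength; some of these are not reported here. No genome was used here, so bases under regions away from listed starts were not analysed here, and neither were exons. The work used matplotlib 3.10.9, pandas 2.3.3, scipy 1.17.1, Python 3.11.15 and numpy 2.4.6.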

Additional observations from a re-analysis of the deposited data

How the results depend on the processing

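Of 115 values under 10 alternatives, 96 stayed within 1.5 times the reported count or 1 SD of the reported strength. When peaks below 8-fold enrichment were dropped, reproducible regions numbered 7 over the 5 genes, 5 at Ntrk2, 1 at Ntrk3 and 0 at Ngfr and Ntf3, leaving 3 genes with one. With only the stronger 0.5 of peaks there were 9 in all, 8 at Ntrk2 and 0 at Ntrk3, Ngfr and Ntf3, leaving 2 genes. With a pairwise overlap of 0.5 of both lengths Ngfr and Ntf3 had 0, leaving 3 genes, and Ntrk2 had 9. Inside the span only, Ngfr had 0, and the shares fell to 14.8% of all protein-coding genes, 20 of 69 signalling genes and 16 of 56 receptor genes; within 100 kb Ngfr had 3. With regions of at least 2 libraries Ntrk2 had 15. Leaving out 1 library gave Ntrk2 12 to 13, the 5 genes 17 to 18, and a strongest Ntrk2 region of 19.0 to 23.6 normalized tags. A region then needed a peak in only the 2 libraries left, so the counts could hardly fall and their steadiness is no support. Without 1 library the strongest Ntrk3 region had 5.10 to 6.12. The stricter settings leave fewer peaks by construction, and the looser ones, 2 libraries or 100 kb, cannot lower a count. No paired analysis was possible because the IP group and the single input library share fewer than 2 replicate numbers, and no test between groups was made. A region of about 20 tags or fewer, such as those of Ntrk3, Ngfr and Ntf3, sits close to the peak threshold, and a library without a peak may still hold tags below it. The same limit holds for some reproducible Ntrk2 regions. In IP libraries 1, 2 and 3 there were 19, 19 and 27 tags at 3.47 kb and 21, 21 and 18 at 20.0 kb.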
